A study of Homo sapiens with 4 samples.

Results

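The genes described here are 9 that encode Polycomb proteins: the chromodomain genes CBX2, CBX6, CBX7 and CBX8, the RING-finger genes BMI1, RING1 and RNF2, and EZH2 and EED of the methyltransferase complex. They were taken by name from 29286 genes listed by Ensembl identifier, and all 9 had a value in every library. RNA was sequenced from HCT116, an established colorectal carcinoma cell line, in cells carrying a short hairpin against WDR43 (shWDR43, labelled WDR43 knockdown, 2 libraries) and in cells carrying a control hairpin (shNC, shNC2 in the titles, labelled Control, 2 libraries). Both groups were infected with lentivirus for 48 h and then kept in puromycin for 3 days, although the treatment label calls the hairpins transfected. The labels name no hairpin sequence or clone and do not say whether replicates were separate cultures, so p-values rest on library-to-library spread alone, and that spread may be technical. WDR43 encodes a nucleolar protein of small-subunit ribosome assembly. Its level was not analysed here, so the knockdown labels were not checked against their target.

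Polycomb proteins keep genes silent through a pair of chromatin complexes. Polycomb repressive complex 2 (PRC2), built around the methyltransferase EZH2 with EED and SUZ12, methylates a lysine in the tail of histone H3. Polycomb repressive complex 1 (PRC1) holds the ubiquitin ligases RING1 or RNF2 with a PCGF partner such as BMI1, and in its canonical form a CBX protein whose chromodomain binds that methyl mark. BMI1, CBX7 and CBX8 are best known for repression of the CDKN2A locus, and EZH2 is often abundant in dividing tumour cells.

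The values were read as FPKM, fragments scaled by gene length and library total, so levels can be compared between genes. They summed to 402393 to 411816 per shWDR43 library and to 393582 to 413758 per shNC library, and because no read totals were used, the depth of the libraries is unknown. Mitochondrial transcripts, symbols starting with MT-, took 23.9% to 24.6% of the sum in shWDR43 and 25.5% to 26.8% in shNC. Of 10 epithelial markers, EPCAM, CDH1, KRT8, KRT18 and KRT19 were at 28.9 FPKM or more in every library, and CDH17, VIL1, LGALS4, KRT20 and CEACAM5, markers of differentiated colon, were under 0.5 FPKM. Of the 6 markers of other cell types with a value, only COL1A1 reached 1 FPKM, and their summed level was 6.13 to 7.40 FPKM in shWDR43 and 7.24 to 8.10 FPKM in shNC. The epithelial markers summed to 2500 and 2442 FPKM in shWDR43, against 1744 and 2066 FPKM in shNC, and the part of this in the results was not tested. The higher sum lay in the keratins: the ratio of mean FPKM, shWDR43 over shNC, was 1.41 for KRT8, 1.35 for KRT18 and 1.28 for KRT19, but 0.950 for EPCAM and 0.921 for CDH1. Of these 5 only KRT8 passed (limma, adjusted p = 0.0480), and its call was lost without shWDR43 replicate 1 (0.380) or 2 (0.342), under median-ratio (0.0890) and upper-quartile scaling (0.111) and with no filter (0.130). KRT8 overlaps KRT18 on the opposite strand. In such bulk RNA, fewer cells of a type and less RNA per cell cannot be told apart. Across 13303 genes that reached 1 FPKM in 2 or more libraries, limma on log2(FPKM + 1) called 833 at an adjusted p below 0.05, with 637 higher and 196 lower in shWDR43. With median-ratio scaling 310 were higher and 140 lower, and with upper-quartile scaling the split was 194 to 182. The total was 391 without shWDR43 replicate 1, 461 without shWDR43 replicate 2, 1760 without shNC replicate 1 and 2610 without shNC replicate 2.

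In the 9 Polycomb genes the ratio of mean FPKM, shWDR43 over shNC, ran from 0.755 (CBX8) to 1.20 (CBX6). None of the 9 genes passed an adjusted p of 0.05 in the limma fit over all genes, where 6.26% of tested genes passed (4.79% higher and 1.47% lower in shWDR43), and 3 of them had an unadjusted p below 0.05, against 26.4% of all tested genes. In all 9 genes the libraries of the groups did not overlap, 3 being higher and 6 lower in shWDR43; among all tested genes this held for 57.3%, 35.8% higher and 21.5% lower. The 9 genes were chosen by name with their FPKM values in this same contrast, shWDR43 against shNC, already known, so these counts are descriptions and nothing is read from them. The log2 differences of the 9 ran from -0.36 to 0.25, with a median of -0.0995, beside a median of 0.046 over all tested genes. Their median absolute difference was 0.11, beside 0.16 over all tested genes. Without shNC replicate 1 the median log2 difference of the 9 was -0.071, beside 0.057 over all tested genes. Without shNC replicate 2 it was -0.099, beside 0.038.

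**Figure D1:**
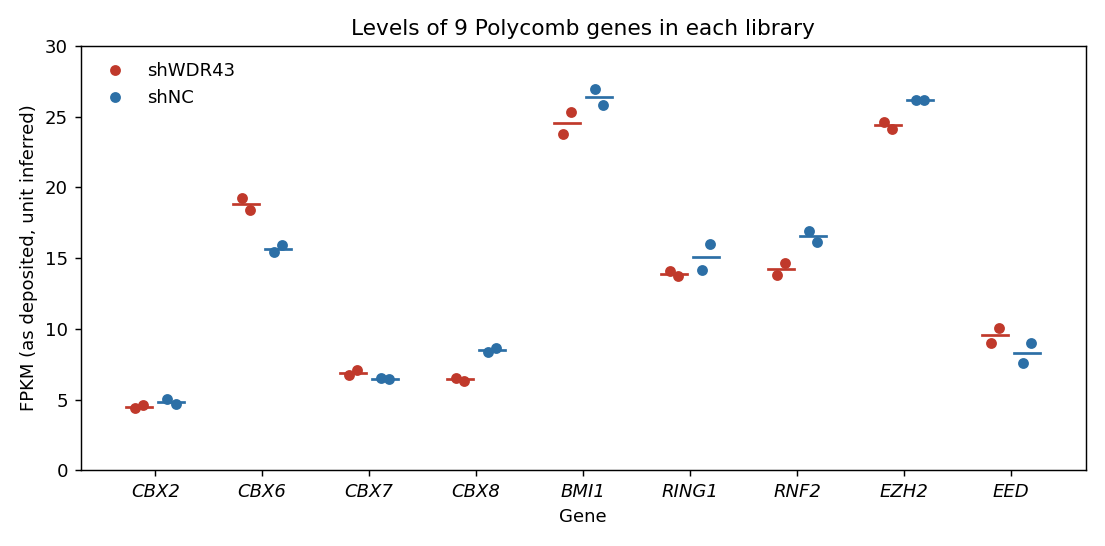
Level of each of the 9 genes in FPKM (vertical axis, linear from 0) in the 2 shWDR43 libraries (red, left) and the 2 shNC libraries (blue, right); each point is 1 library and each line the mean of 2. The group means stand furthest apart for CBX6, at 18.4 and 19.2 FPKM in shWDR43 against 15.4 and 15.9 FPKM in shNC. The means of CBX8 and RNF2, lower in shWDR43, come next.

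Among the CBX genes, CBX8 encodes a chromodomain protein of canonical PRC1. It was at 6.54 and 6.31 FPKM in shWDR43 replicates 1 and 2, against 8.38 and 8.65 FPKM in shNC replicates 1 and 2. Both shWDR43 libraries lay below both shNC libraries, and the gap was several times the difference between replicates. Its mean was 6.43 ± 0.162 FPKM in shWDR43 and 8.51 ± 0.187 FPKM in shNC (SD, n = 2 each), a ratio of 0.755 and a log2 difference of -0.36 ± 0.093 (SE), the largest in size of the 9. CBX6, a chromodomain protein that also joins PRC1, went the other way. It was at 19.2 and 18.4 FPKM in shWDR43, against 15.4 and 15.9 FPKM in shNC. Its 2 shWDR43 libraries lay above its shNC libraries, with a mean ratio of 1.20 and a log2 difference of 0.25 ± 0.084. The ratio of CBX6 to CBX8 within a library was 2.94 and 2.91 in shWDR43, against 1.84 and 1.84 in shNC.

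CBX7, which in other cell systems restrains CDKN2A, was at 6.70 and 7.09 FPKM in shWDR43, against 6.53 and 6.43 FPKM in shNC. The libraries of the groups did not overlap, but the nearest ones were 0.178 FPKM apart, less than the difference between the shWDR43 replicates. Its log2 difference was 0.079 ± 0.096, smaller than its SE. CBX2, known for roles in body patterning and in sex determination, was the lowest of the 9, at 4.38 and 4.62 FPKM in shWDR43, against 5.01 and 4.66 FPKM in shNC. Its log2 difference was -0.084 ± 0.10, also smaller than its SE, and the nearest libraries of the groups were 0.0360 FPKM apart. CBX6 (38861450 to 38872314) and CBX7 (39120167 to 39152674) lie on the minus strand of chromosome 22, GRCh38, with 248 kb between them. The antisense genes that overlap CBX8 and CBX7 were at or below 0.439 and 0.782 FPKM in every library. Whether the counting used strand is not stated in the labels, and reads of these pairs cannot be told apart without it.

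CBX2 and CBX8 are neighbours on chromosome 17 of GRCh38 (GENCODE release 29), where CBX2 spans 79778132 to 79787983 on the plus strand and CBX8 79792132 to 79801683 on the minus strand. Their ends face each other with 4.15 kb between them. The difference was not of 1 size at this pair, with a ratio of mean FPKM, shWDR43 over shNC, of 0.932 for CBX2 and 0.755 for CBX8.

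Added together, CBX2, CBX6, CBX7 and CBX8 came to 36.8 and 36.4 FPKM in shWDR43, against 35.3 and 35.6 FPKM in shNC. The sums lay close while the makeup differed. CBX6 made up 52.2% and 50.5% of the sum in shWDR43, against 43.7% and 44.6% in shNC. CBX8 made up 17.8% and 17.3% in shWDR43, against 23.7% and 24.3% in shNC. The share of CBX7 was 18.2% and 19.5% in shWDR43, against 18.5% and 18.04% in shNC, and these ranges overlap. CBX2 made up 11.9% and 12.7% in shWDR43, against 14.2% and 13.1% in shNC. These are shares of transcript levels, and protein was not measured.

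**Figure D2:**
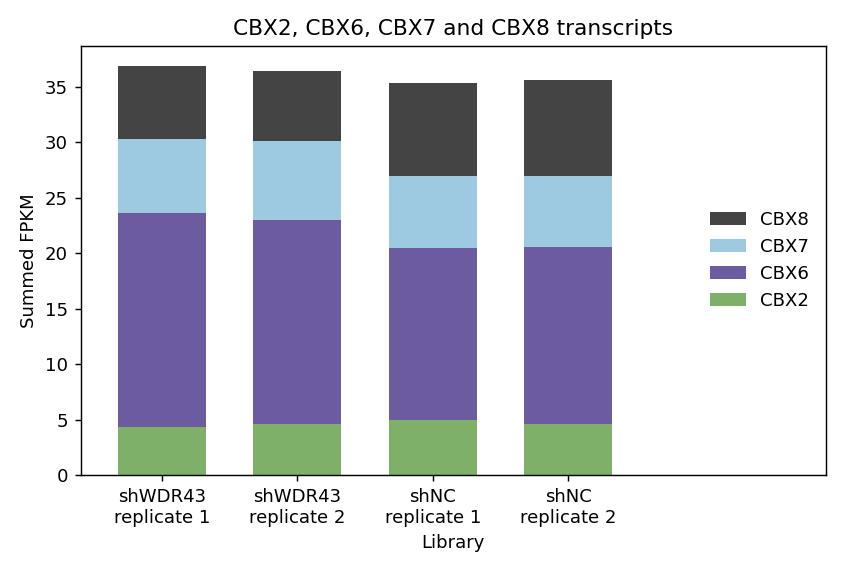
Summed FPKM of CBX2, CBX6, CBX7 and CBX8 (vertical axis, linear from 0) in each library, shWDR43 on the left and shNC on the right, with 1 colour per gene. The bars reach 36.8 and 36.4 FPKM in shWDR43 and 35.3 and 35.6 FPKM in shNC, with a larger CBX6 segment and a smaller CBX8 segment in shWDR43.

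The catalytic core of PRC1 is a pair of RING-finger proteins, of which RING1 or RNF2 carries the ubiquitin ligase activity. RNF2 (chromosome 1, 185045364 to 185102608) was at 13.8 and 14.6 FPKM in shWDR43, against 16.9 and 16.1 FPKM in shNC. Both shWDR43 libraries lay below both shNC libraries, with a ratio of 0.860 and a log2 difference of -0.20 ± 0.087. RING1 (chromosome 6, 33208495 to 33212722) was at 14.1 and 13.7 FPKM in shWDR43, against 14.2 and 16.0 FPKM in shNC. Here shNC replicate 1 lay within 0.0999 FPKM of shWDR43 replicate 1, and the log2 difference was -0.11 ± 0.094. Leaving out shNC replicate 1 moved it to -0.19, and leaving out shNC replicate 2 to -0.027. Summed, the ligase genes were at 27.9 and 28.3 FPKM in shWDR43, against 31.1 and 32.1 FPKM in shNC. The ratio of RNF2 to RING1 was 0.982 and 1.07 in shWDR43, against 1.19 and 1.01 in shNC, and these ranges overlap.

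BMI1, the PCGF partner that stimulates the ligase, was the most abundant of the 9 by mean, at 23.8 and 25.3 FPKM in shWDR43, against 26.9 and 25.8 FPKM in shNC. Its log2 difference was -0.0999 ± 0.082, and the nearest libraries of the groups were 0.508 FPKM apart, less than the difference between replicates in either group. BMI1 (chromosome 10, 22321211 to 22331484) lies on the same strand as the read-through gene COMMD3-BMI1, which covers most of it. The read-through gene was listed at no more than 0.0962 FPKM, and the split of shared reads between the genes is uncertain. PCGF2, the nearest paralog of BMI1, was at 11.2 and 12.3 FPKM in shWDR43, against 13.3 and 14.1 FPKM in shNC, and its log2 difference, -0.20 ± 0.092, missed the threshold (limma, adjusted p = 0.209). PCGF2 overlaps CISD3 on the opposite strand, a gene at a mean of 4.09 FPKM over the libraries. The ratio of BMI1 to PCGF2 was 2.12 and 2.05 in shWDR43, against 2.02 and 1.84 in shNC.

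EZH2, the PRC2 methyltransferase (chromosome 7, 148807383 to 148884321), had the closest control replicates of the 9. It was at 24.6 and 24.1 FPKM in shWDR43, against 26.2 and 26.2 FPKM in shNC. Both shWDR43 libraries lay below both shNC libraries, and the nearest were 1.57 FPKM apart, more than the difference between replicates in either group. The ratio was 0.931 and the log2 difference -0.0995 ± 0.078. EED, the PRC2 subunit that reads the methyl mark and stimulates EZH2 (chromosome 11, 86244544 to 86278813), was at 9.03 and 10.04 FPKM in shWDR43, against 7.55 and 8.98 FPKM in shNC. The nearest EED libraries of the groups were 0.0493 FPKM apart while replicates differed by over 1 FPKM, and its log2 difference was 0.19 ± 0.11. Leaving out shNC replicate 1 gave 0.077, and leaving out shNC replicate 2 gave 0.30. EZH1, the paralog of EZH2 that is more typical of non-dividing cells, was at 15.6 and 15.6 FPKM in shWDR43, against 14.5 and 13.2 FPKM in shNC, with a log2 difference of 0.16 ± 0.089 (limma, adjusted p = 0.297). The EZH2 to EZH1 ratio was 1.57 and 1.55 in shWDR43, against 1.802 and 1.98 in shNC. SUZ12, which holds PRC2 together, was at 18.1 and 18.5 FPKM in shWDR43, against 21.7 and 21.6 FPKM in shNC, a log2 difference of -0.23 ± 0.081 (limma, adjusted p = 0.124).

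**Figure D3:**
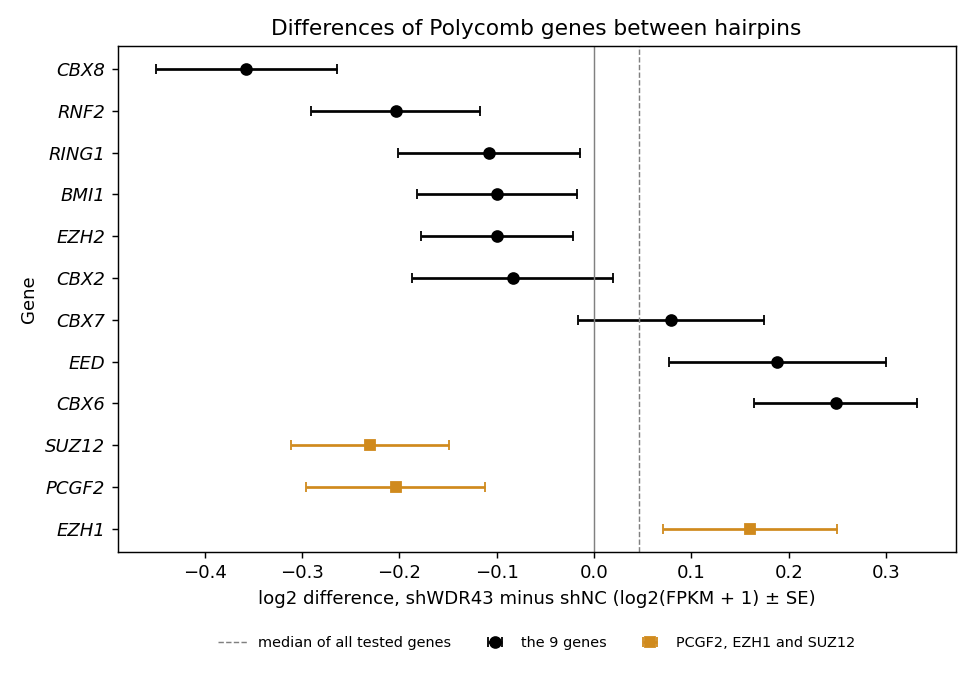
Log2 difference, shWDR43 minus shNC, on the log2(FPKM + 1) scale with its SE (horizontal axis) for the 9 genes (black circles) and for SUZ12, PCGF2 and EZH1 (orange squares); the dashed line is the median of all tested genes, 0.046. The 9 genes run from -0.36 for CBX8 to 0.25 for CBX6, and the other 3 lie inside that range.

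In order of mean level in shWDR43, the 9 genes ran BMI1, EZH2, CBX6, RNF2, RING1, EED, CBX7, CBX8 and CBX2. BMI1 and EZH2 overlapped there, as did RNF2 and RING1, and the other neighbours in this order were apart. In shNC the order was BMI1, EZH2, RNF2, CBX6, RING1, CBX8, EED, CBX7 and CBX2, where BMI1 and EZH2, CBX6 and RING1, and CBX8 and EED overlapped. CBX6 thus stood above RNF2 in shWDR43 and below it in shNC, and CBX8 stood below CBX7 and EED in shWDR43 and above CBX7 in shNC. All 9 were moderately expressed, from the 36.0th percentile of tested genes for CBX2 to the 84.4th for BMI1. Their sum was 122 and 124 FPKM in shWDR43, against 127 and 129 FPKM in shNC.

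Promoter sequence is shown for members that lay higher in shWDR43 (CBX6, EED) and lower (RNF2, EZH2), as what such genes share or lack at their starts. Sequences are RefSeq windows of build GRCh38.p14, the 250 bases before the annotated start, read 5′ to 3′ on the gene's strand. GENCODE starts these genes further upstream, so windows reach into its gene spans. Of the 9 genes 7 had a window (9 windows), and CBX2 and CBX8 had none. Capitals mark an E-box (CACGTG, the letters bound by MYC and related factors), an E2F-type motif (GGCGGGA) or an NF-Y box (CCAAT), searched on both strands.
CBX6 (chr22:38872217-38872466, minus strand): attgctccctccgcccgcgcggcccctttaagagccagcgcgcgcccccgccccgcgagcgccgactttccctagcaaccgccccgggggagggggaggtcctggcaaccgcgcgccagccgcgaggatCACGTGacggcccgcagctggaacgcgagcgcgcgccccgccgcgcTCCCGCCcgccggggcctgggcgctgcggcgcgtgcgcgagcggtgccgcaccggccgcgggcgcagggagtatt
EED (chr11:86244503-86244752, plus strand): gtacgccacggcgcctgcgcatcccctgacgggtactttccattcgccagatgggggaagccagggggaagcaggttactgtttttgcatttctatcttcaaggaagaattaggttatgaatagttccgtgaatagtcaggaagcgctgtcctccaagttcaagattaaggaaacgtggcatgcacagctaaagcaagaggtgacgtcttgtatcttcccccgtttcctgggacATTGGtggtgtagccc
RNF2 (chr1:185045308-185045557, plus strand): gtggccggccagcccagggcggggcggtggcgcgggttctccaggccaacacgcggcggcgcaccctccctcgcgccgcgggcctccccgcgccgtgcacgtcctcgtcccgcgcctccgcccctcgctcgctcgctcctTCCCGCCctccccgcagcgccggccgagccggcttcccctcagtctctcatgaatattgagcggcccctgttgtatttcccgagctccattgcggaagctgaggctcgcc
EZH2 (chr7:148884292-148884541, minus strand): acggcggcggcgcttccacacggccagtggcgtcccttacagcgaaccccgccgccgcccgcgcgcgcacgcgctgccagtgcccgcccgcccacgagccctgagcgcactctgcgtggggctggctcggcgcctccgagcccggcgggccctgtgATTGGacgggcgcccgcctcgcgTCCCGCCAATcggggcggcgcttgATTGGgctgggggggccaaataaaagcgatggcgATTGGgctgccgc
The E-box was in CBX6, 121 bases before the start, and in the upstream window of BMI1, 70 bases before the start, that is in 2 of 9 member windows and 6.35% of 35114 windows of this length. The E2F-type motif was in 6 of 9 member windows (CBX6, CBX7, RING1, RNF2 and both windows of EZH2) and 13.5% of all windows. It can overlap the GC box (GGGCGG, not capitalised), which was in 8 of 9 member windows and 42.6% of all. EZH2 held 4 NF-Y boxes within 94 bases of its start, of which 1 shares letters with the E2F-type motif; EED and CBX7 held 1 each, and 32.0% of all windows held at least 1. The CHR letters TTTGAA, found in many cell-cycle promoters, were in 0 of 9 member windows and 13.3% of all windows. EED stood out by base composition, with 51.2% G and C and 11 CpG, against 72.8% to 91.6% and 34 to 54 CpG in the other member windows and medians of 58.0% and 11 over all windows. CBX6, higher in shWDR43, and RNF2, lower, both held the E2F-type letters. Shares over all windows were not matched for base composition. A match is a description of letters and does not show binding.

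Of 25 other tested PRC1 genes, 1 rose and 0 fell, with a median log2 difference of -0.027. In this list 5 had an unadjusted p below 0.05 (limma), as 26.4% of all tested genes did. SCML1, related to the SCM proteins of fly PRC1, was at 3.66 and 4.05 FPKM in shWDR43, against 2.26 and 2.50 FPKM in shNC, and rose by 0.52 ± 0.12 on the log2 scale (limma, adjusted p = 0.0445). Among other settings, the SCML1 call was lost without shWDR43 replicate 1 (adjusted p = 0.103) or 2 (0.228), under median-ratio scaling (0.0598), under upper-quartile scaling (0.0710) and with no filter (0.141), in a range of 0.0193 to 0.228 over 11 alternatives. Without shNC replicate 1 the PRC1 list had 2 calls, 1 higher and 1 lower, and without shNC replicate 2 it had 5, 1 higher and 4 lower. Of 11 other tested PRC2 genes none passed with limma and 2 had an unadjusted p below 0.05, the histone-binding subunit gene RBBP7 and SUZ12. RBBP7 was at 64.0 and 64.4 FPKM in shWDR43, against 50.1 and 53.4 FPKM in shNC, a log2 difference of 0.31 ± 0.080 (adjusted p = 0.0638), and it overlaps TXLNG on the opposite strand. The RBBP7 difference was 0.26 and 0.35 without shNC replicate 1 and 2, and 0.31 and 0.30 without shWDR43 replicate 1 and 2. Among fits that kept all 4 libraries, RBBP7 passed with a filter at 5 FPKM (limma, adjusted p = 0.0462). It missed under median-ratio (0.116) and upper-quartile scaling (0.167), with no filter (0.167) and with a replicate block (0.132).

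Other chromodomain genes included the HP1 genes CBX1, CBX3 and CBX5, which bind a different histone H3 methyl mark. Of 11 tested genes in this group none passed with limma, and 3 had an unadjusted p below 0.05, as 26.4% of all tested genes did. CHD1, a chromatin remodeller gene, was at 18.4 and 18.2 FPKM in shWDR43, against 26.1 and 21.96 FPKM in shNC, a log2 difference of -0.37 ± 0.10 (adjusted p = 0.0696). CHD2, its relative, had a log2 difference of -0.28 ± 0.081 (limma, adjusted p = 0.0778). CHD2 overlaps another protein-coding gene on the same strand, which was at a mean of 2.56 FPKM over the libraries. Without shNC replicate 1 the difference was -0.25 for CHD1 and -0.23 for CHD2. Without shNC replicate 2 it was -0.49 and -0.34. Of 19 tested genes whose products oppose Polycomb none passed with limma, and 1 had an unadjusted p below 0.05. That was ARID1A, a SWI/SNF subunit gene, at 15.1 and 14.6 FPKM in shWDR43, against 21.1 and 16.3 FPKM in shNC (log2 difference -0.30 ± 0.12, adjusted p = 0.173). The methyltransferase gene KMT2B came next, at -0.28 ± 0.12 (adjusted p = 0.192). The difference was -0.12 for ARID1A and -0.15 for KMT2B without shNC replicate 1, and -0.48 and -0.42 without shNC replicate 2.

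Known Polycomb targets, a list of HOX genes, CDKN2A, CDKN2B and developmental factors, had differences of both signs. Of 59 listed genes 53 had values and 30 were tested, of which 1 fell and 0 rose, with a median log2 difference of -0.027. In this list 6 had an unadjusted p below 0.05 (limma), 4 higher and 2 lower in shWDR43, beside 26.4% of all tested genes. The median was -0.042 and 0.031 without shWDR43 replicate 1 and 2, and 0.019 and 0.034 without shNC replicate 1 and 2. HOXC6 was at 0.902 and 0.820 FPKM in shWDR43, against 2.03 and 1.82 FPKM in shNC. It fell by 0.65 ± 0.14 on the log2(FPKM + 1) scale (limma, adjusted p = 0.0386). Both its shWDR43 values were below 1 FPKM, so it was tested only through shNC, where it was higher, and nothing is read from its call. That call was lost without shWDR43 replicate 1 (adjusted p = 0.0876), shWDR43 replicate 2 (0.125) or shNC replicate 1 (0.0586), and with no filter on low values (0.130). HOXC6 overlaps other HOXC genes and antisense RNAs, so its level is uncertain. Targets at the INK4 locus were singled out after their values were seen. CDKN2A, whose products include the p16 inhibitor, was at 15.8 and 14.1 FPKM in shWDR43, against 17.6 and 18.2 FPKM in shNC. Its log2 difference was -0.25 ± 0.092 (limma, adjusted p = 0.144). CDKN2B, the p15 gene, was at 3.42 and 3.25 FPKM in shWDR43, against 2.65 and 2.58 FPKM in shNC (log2 difference 0.26 ± 0.11, adjusted p = 0.184). Neither passed, their signs differ, and both overlap CDKN2B-AS1 on the opposite strand.

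**Figure D4:**
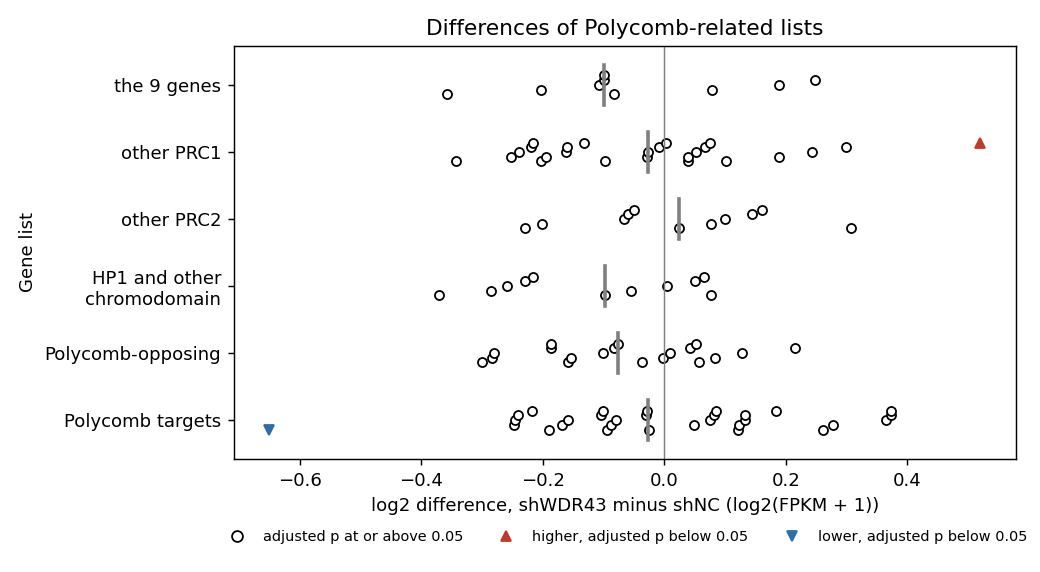
Log2 difference, shWDR43 minus shNC (horizontal axis), of each tested gene in 6 lists; grey bars are list medians, open circles genes with an adjusted p of 0.05 or more, and filled triangles genes below it. The filled points are SCML1 in the PRC1 list and HOXC6 among the targets, and the list medians lie between -0.0995 and 0.024.

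CBX8 had the largest absolute difference of the 9, and the tested genes whose pattern over the 4 libraries lay nearest to its own were CYTH2, HNRNPH1 and DDX59. Likeness was the Euclidean distance between log2(FPKM + 1) values centred on each gene's mean, 0.021 for CYTH2, 0.026 for HNRNPH1 and 0.027 for DDX59. DDX59 was also at a similar level, 6.61 and 6.30 FPKM in shWDR43, against 8.25 and 8.52 FPKM in shNC. With 4 libraries in 2 groups, such likeness mostly restates the group difference.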

How the data were processed

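Gene-level RNA-seq values of 4 libraries were used, 2 per group, grouped by their titles. Per the submitters' processing notes, build GRCh38 and the tools HISAT2, RSEM, edgeR, Trimmomatic, FastQC and CASAVA 1.8 were involved, with no role or order given; annotation release and strandedness: not given in the sources used here. Values deposited by the authors carry no unit and were read as FPKM from their range and sums, although TPM restricted to some genes could look alike. A blank entry was left out. Of 29286 identifiers, 29170 matched a symbol and 28468 a GENCODE release 29 position.

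The values were fitted with limma 3.58.1 (R 4.3.3) on log2(FPKM + 1), which understates changes of low genes, for genes reaching 1 FPKM in 2 or more libraries, with the group as the only term and trended, robust empirical Bayes moderation. P-values were two-sided and Benjamini-Hochberg adjusted over 13303 genes. An exact permutation test of 2 against 2 libraries cannot go below 0.333. The fit was tested on simulated data. Alternatives were another pseudocount, other filters and scalings, robust settings off, replicate blocks and leaving out each library. The members and lists were chosen with earlier results of these data known. In each list, up to 6 called genes with the smallest p, or the 2 smallest where none passed, are named, besides the members, PCGF2, EZH1 and SUZ12; an item the rule covers is not reported here. Tables and figures used Python 3.11.15.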

Additional observations from a re-analysis of the deposited data

How the results depend on the processing

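The log2 differences of the 9 Polycomb genes kept their sign under all 12 alternatives wherever a value was given (107 values). Of these values 98 moved by less than 1 SD between replicates, but many could not have moved further. Filters, robust settings and replicate blocks leave a difference as it is, and leaving out 1 library cannot move it beyond this SD. The 9 values that moved by 1 SD or more all came from the other pseudocount or the scalings, mostly upper-quartile scaling. CBX2 had no value with a filter at 5 FPKM. The count of all called genes, 833, was 17 with no filter on low values, 450 after median-ratio scaling, 376 after upper-quartile scaling and 391 to 2610 with 1 library left out. On the log2 scale CBX8 differed by -0.38 and -0.34 without shNC replicate 1 and 2, and by -0.38 and -0.34 without shWDR43 replicate 1 and 2. The number of members past the threshold, 0 in the report, was not 0 in every fit with 1 library left out. It was 1 of 8 tested, CBX8, with a filter at 5 FPKM, where 1031 of 8428 genes passed. For other PRC1 genes, 1 in the report, it was 0 with no filter, 0 with a filter at 5 FPKM (where SCML1 is not tested), 0 under either scaling and 0 to 5 with 1 library left out. Other PRC2 genes had 1 call with a filter at 5 FPKM and 0 to 2 with 1 library left out, other chromodomain genes 0 to 3 and opposing genes 0 to 5. Targets had 0 with no filter, 0 with a filter at 5 FPKM and 0 to 2 with 1 library left out. The cause of these shifts was not tested.

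The replicate numbers share no stated batch or culture, and deviations of same-numbered libraries correlated at -0.147 over 13303 genes. A replicate block gave 563 calls over all genes, 0 members and 0 other PRC1 genes. Of the calls given for single genes, it ended those of SCML1 (adjusted p = 0.0565), KRT8 (0.118) and APOBEC3C (0.0698), and HOXC6 still passed (0.0469). A crossed replicate block, chosen after seeing the data, gave 1954 calls, with 1 member, 2 other PRC1 genes, 1 other PRC2 gene, 2 other chromodomain genes and 2 targets. A library left out leaves a group with a lone library, assumed to vary like the other group. Depth is unknown, so no counting error can be given.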

Other observations

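The tested neighbours of CBX6 and CBX7 within 250 kb, a window chosen after the data were seen, were read for comparison. Around CBX6 and CBX7 on chromosome 22 there were 22 other tested genes, with log2 differences from -0.34 to 0.43 and a median of 0.083. Of these 1 rose, APOBEC3C, a cytidine deaminase gene between CBX6 and CBX7, at 29.6 and 28.4 FPKM in shWDR43, against 20.1 and 23.04 FPKM in shNC (log2 change 0.41 ± 0.093, limma adjusted p = 0.0460). That call was lost without shWDR43 replicate 1 (adjusted p = 0.214) or 2 (0.110). It was also lost under median-ratio scaling (0.0757), upper-quartile scaling (0.0993), with no filter (0.150), with robust settings off (0.0501) and with a replicate block (0.0698), in a range of 0.00708 to 0.214 over 12 alternatives. APOBEC3 genes are similar in sequence and can share reads, so this level is uncertain. NPTXR, on the other side of CBX6, was at 6.22 and 6.06 FPKM in shWDR43, against 4.50 and 4.11 FPKM in shNC (log2 difference 0.43 ± 0.10, limma adjusted p = 0.0514).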
